A study of Mus musculus with 6 samples.

Results

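Ribosomes are built in the nucleolus, where RNA polymerase I copies the ribosomal RNA genes and a large set of proteins and small nucleolar RNAs (snoRNAs) modifies, cuts and folds the transcript into the small and the large ribosomal subunit. The transcription factor MYC activates many of the genes for this machinery, and liver cells need it to sustain their high output of secreted proteins. The 35 genes described here encode parts of that machinery: MYC itself, RNA polymerase I subunits, the proteins of both classes of snoRNA particles, assembly factors of each subunit, and the abundant nucleolar proteins Ncl, Npm1 and Nolc1. They were picked by name, as table lines whose symbol equals a listed one, out of 22488 genes per table. All 35 were found, each on 1 line, and the Entrez identifier of all 35 led to the same symbol in the reference annotation.

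RNA came from whole livers of wild-type (WT) male C57BL/6 mice aged 6 to 8 weeks, fasted for 16 h. Control mice (n = 3 libraries) received 200 µl of the salt buffer HBSS into the abdominal cavity, although a label field of these samples gives no treatment. LPS mice (n = 3 libraries) were injected at the same site with 6 mg/kg of the bacterial endotoxin lipopolysaccharide. How long after injection the livers were taken is not given, and no source says whether each library is a different mouse, so that p-values reflect the variation among these 6 samples, which may be technical. Libraries held 11488525 to 20282004 counts. Low counts were mostly even: of genes with 1 to 10 counts in a library, 90.2% to 92.2% had an even one, so a count may not stand for an independent fragment. All 14 hepatocyte markers examined passed the filter on low counts. The member genes held 48 to 4708 counts per library.

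Most of the nucleolar genes were higher in LPS livers. Of the 35 members 23 rose and 1 fell, where 31.3% of all 12078 genes tested rose and 31.0% fell, and 62.3% changed in either direction. As a share, 65.7% of the members rose. All 35 passed the filter on low counts. A positive log2 fold change (LPS minus control), called or not, was seen in 28 members, and in 50.5% of all genes tested. Their median log2 fold change was 0.71, against 0.01 over all tested genes, and single members ran from -0.66 for Nop10 to 2.56 for Rrp1b. A rise of at least 2-fold was found in 8 members, where 16.0% of all genes tested rose that much. The LPS libraries lay above all control libraries for 27 members and below them for 2, against 34.0% and 33.4% of all genes tested. These calls rest on edgeR's quasi-likelihood test with Benjamini-Hochberg adjustment over all genes tested.

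Together the 35 genes took 0.0967%, 0.103% and 0.0955% of the counts in control replicates 1, 2 and 3, and 0.137%, 0.143% and 0.136% in LPS replicates 1, 2 and 3. In whole liver, more RNA per cell and more cells that carry it cannot be told apart. Levels below are CPM, counts scaled to a common library size with TMM factors, in the order replicate 1, 2, 3.

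**Figure D1:**
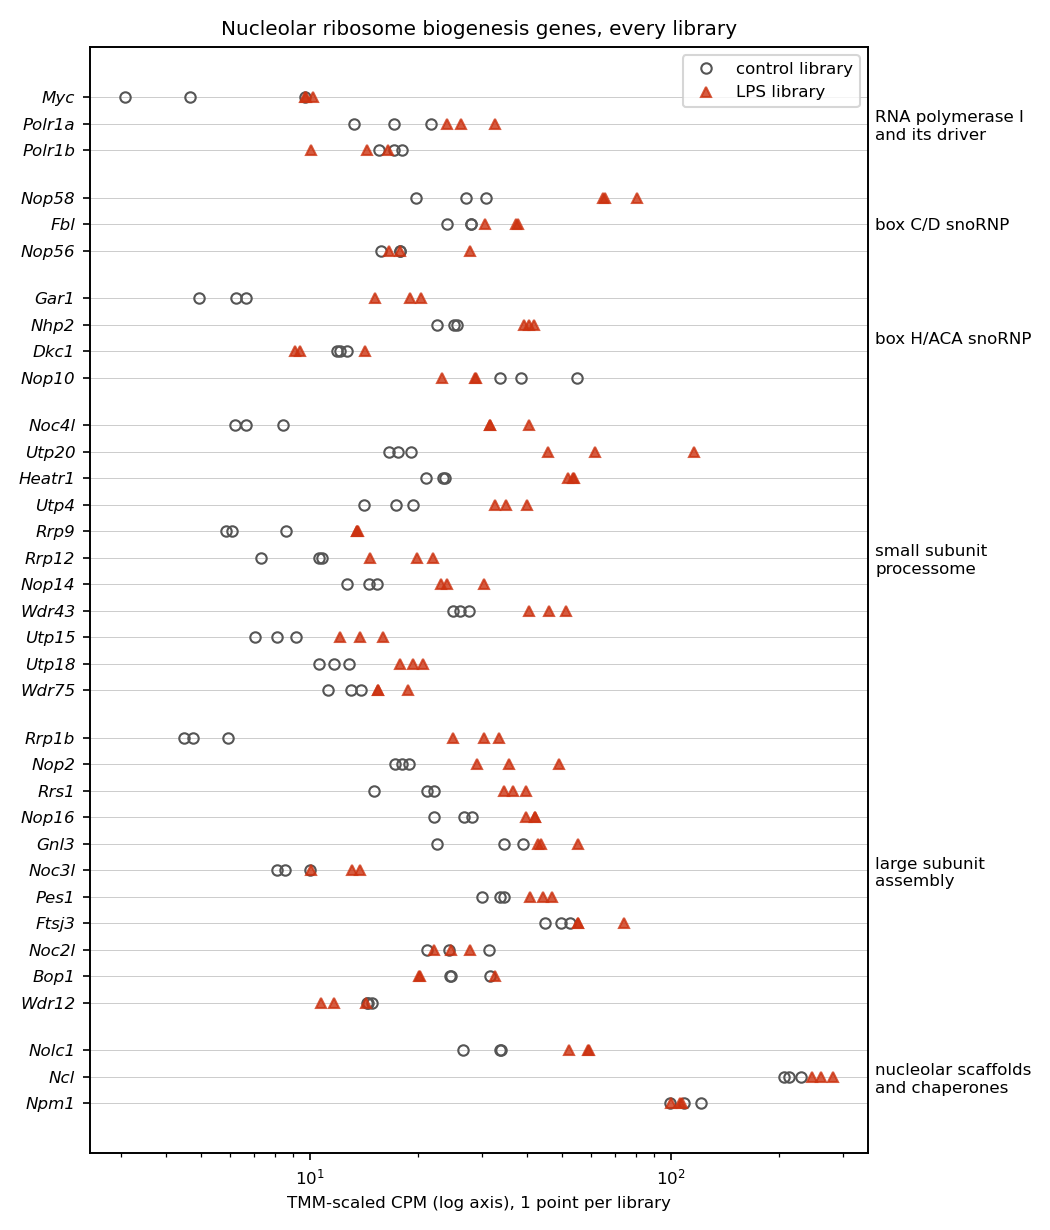
TMM-scaled CPM on a log axis for each of the 35 genes, grouped by role, with 1 open circle per control library and 1 red triangle per LPS library. The LPS triangles lie to the right of all control circles for 27 genes, and to their left for Nop10 and, by a narrow margin, Wdr12.

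Myc was low in every liver and its groups nearly touched. It stood at 9.67, 4.67 and 3.08 CPM in control livers and at 9.72, 9.77 and 10.2 CPM in LPS livers. The LPS values were alike and just above control replicate 1, which was 3.14 times control replicate 3. The log2 fold change was 0.79 (SE 0.33, adjusted p = 0.0493), the call nearest to the threshold among the members. It was 1.34 without control replicate 1 and 0.47 without control replicate 3, and the call ended when any 1 library other than control replicate 1 was left out, with library totals as the only scaling (0.72) and with a stricter filter on low counts (0.78).

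Of the large subunits of RNA polymerase I, Polr1a rose and Polr1b did not pass the threshold. Polr1a, which holds the catalytic centre, had 21.6, 13.2 and 17.1 CPM in control livers and 24.0, 26.3 and 32.6 CPM in LPS livers. Every LPS library was above every control library, and Polr1a rose 1.61-fold (log2 fold change 0.68, SE 0.19, adjusted p = 0.00556). Polr1b, its partner in the enzyme core, had 15.5, 18.0 and 17.1 CPM in control and 10.1, 16.5 and 14.4 CPM in LPS livers. These groups overlapped, with a log2 difference of -0.30 (SE 0.19, adjusted p = 0.179). The log2 ratio of Polr1a to Polr1b counts within a library, which needs no scaling between libraries, was 0.01 ± 0.46 (SD, n = 3) in control and 1.04 ± 0.31 (SD, n = 3) in LPS livers. The groups did not overlap. The exact permutation p of 0.1 (2-sided) is the smallest that 3 against 3 libraries allow, so this design cannot put a ratio past the threshold, and this and the later ratios were chosen after the values were seen.

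MYC binds DNA together with its partner MAX and prefers the E-box CACGTG, though it is not confined to it. Promoter windows of 300 bases, running from 250 before to 50 after an annotated start, were taken from RefSeq on GRCm38.p6 and held 29 of the members in 33 windows. CACGTG, which reads the same on both strands, was found in 6 of the 33 windows (18.2%), in 9.86% of 12206 windows of tested genes and in 7.15% of all 32851 windows. These counts describe letters in a window, and no test of them was made. The 6 members were Nop2, Utp18, Utp4, Utp20, Pes1 and Wdr43, and all 6 rose, as did 13 of the 23 members in the table without the E-box. Among all genes tested 31.3% rose. Their sites are shown because the E-box is the motif named above for MYC. Whether MYC acts on any of these members was not tested. They are written 5′ to 3′ on the gene's strand, with the E-box in capitals.
Nop2, chr6:125131813-125131838, plus strand: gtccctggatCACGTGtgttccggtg
Utp18, chr11:93885771-93885796, minus strand: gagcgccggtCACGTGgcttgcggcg
Utp4, chr8:106893645-106893670, plus strand: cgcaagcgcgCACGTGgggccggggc
Utp20, chr10:88826765-88826787, minus strand: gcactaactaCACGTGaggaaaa
Pes1, chr11:3963967-3963992, plus strand: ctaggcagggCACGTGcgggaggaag
Wdr43, chr17:71616222-71616247, plus strand: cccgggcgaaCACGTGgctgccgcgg

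The E-box of Nop2 began 60 bases and that of Utp18 20 bases before the start, and the other 4 lay after it. The sequence CCGGAAG, the core that ETS family factors bind, was in 10 of the 33 windows on either strand (30.3%, 9 members), against 16.9% of windows of tested genes. Of those 9 members 7 rose, and of the 20 without it 12 rose, beside 31.3% of all genes tested. A fixed form of the element of the factor NRF1, which reads the same on both strands, was in 0 of the 33 windows and in 2.04% of windows of tested genes. The median share of G and C was 59.7% in the members' windows, 60.7% in those of tested genes and 52.7% in all windows. The letters of the E-box and of the ETS core cannot overlap each other. The 250 bases before the start of Nop2 (chr6:125131633-125131882, plus strand) hold the E-box and the ETS core, in capitals:
Nop2: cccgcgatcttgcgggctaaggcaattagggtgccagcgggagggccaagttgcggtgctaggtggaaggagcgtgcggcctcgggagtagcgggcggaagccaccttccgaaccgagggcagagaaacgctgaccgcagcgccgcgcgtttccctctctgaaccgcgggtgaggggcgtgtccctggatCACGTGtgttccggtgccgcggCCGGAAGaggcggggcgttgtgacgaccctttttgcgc

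Box C/D particles place methyl groups on ribosomal RNA, and 2 of their 3 members, Nop58 and Fbl, rose, beside 31.3% of all genes tested. Nop58, a core scaffold of the particle, had 27.1, 30.7 and 19.7 CPM in control and 65.1, 65.9 and 80.8 CPM in LPS livers. The groups were far apart, and Nop58 rose 2.73-fold (log2 fold change 1.45, SE 0.16, adjusted p = 4.12e-06). Nop56, its paired scaffold, had 17.8, 17.8 and 15.7 CPM in control and 17.7, 16.5 and 27.7 CPM in LPS livers. Only LPS replicate 3 stood above the control values, and the log2 difference of 0.28 (SE 0.19, adjusted p = 0.226) was 0.01 without that library. The log2 ratio of Nop58 to Nop56 counts went from 0.58 ± 0.23 to 1.80 ± 0.23 (SD, n = 3 each), with groups that did not overlap (exact permutation p = 0.1). Fbl, the methyltransferase fibrillarin, had 24.0, 28.0 and 28.0 CPM in control and 37.8, 30.6 and 37.1 CPM in LPS livers. It rose (log2 fold change 0.40, SE 0.13, adjusted p = 0.0204). Library totals as the only scaling (0.33) ended the call, as did leaving out control replicate 1 (0.32), LPS replicate 1 (0.32) or LPS replicate 3 (0.36).

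Box H/ACA particles convert uridine to pseudouridine in ribosomal RNA, and the same proteins sit in telomerase. Of their 4 proteins 2 rose and 1 fell, beside 31.3% and 31.0% of all genes tested. Gar1, which helps the enzyme take up and release its RNA, had 6.24, 6.67 and 4.94 CPM in control and 20.3, 15.1 and 19.0 CPM in LPS livers. All LPS libraries were well above control, and Gar1 rose 3.04-fold (log2 fold change 1.60, SE 0.20, adjusted p = 9.62e-06). Nhp2, which binds the RNA, rose 1.66-fold, from 24.4 ± 1.68 to 40.5 ± 1.34 CPM (SD, n = 3 each). Dkc1, the pseudouridine synthase dyskerin, had 12.7, 12.1 and 11.9 CPM in control and 9.38, 9.07 and 14.2 CPM in LPS livers. Its groups overlapped, with a log2 difference of -0.17 (SE 0.20, adjusted p = 0.490).

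Nop10, the small protein that bridges dyskerin and Nhp2, was the only member that fell. It had 38.4, 55.0 and 33.6 CPM in control and 28.9, 28.6 and 23.2 CPM in LPS livers. Every LPS library was below every control library (log2 fold change -0.66, SE 0.18, adjusted p = 0.00505), and the fall ran from -0.44 to -0.82 with a library left out, each past the threshold. The log2 ratio of Gar1 to Nop10 counts went from -2.81 ± 0.22 to -0.57 ± 0.32 (SD, n = 3 each), and the groups did not overlap (exact permutation p = 0.1). Whether promoter sequence has a part in the opposite changes of Gar1 and Nop10 was not tested. The 250 bases before the starts of these partners in 1 particle are shown because they moved in opposite directions. They are Gar1, chr3:129831397-129831646 on the minus strand, with its CTTCCGG (the reverse complement of CCGGAAG) in capitals, and Nop10, chr2:112261676-112261925 on the plus strand, which holds none of the motifs searched.
Gar1: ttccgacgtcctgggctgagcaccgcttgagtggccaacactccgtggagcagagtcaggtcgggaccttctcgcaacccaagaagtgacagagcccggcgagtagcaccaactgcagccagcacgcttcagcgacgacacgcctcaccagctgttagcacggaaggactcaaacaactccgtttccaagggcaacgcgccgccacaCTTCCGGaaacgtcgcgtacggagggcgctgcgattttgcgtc
Nop10: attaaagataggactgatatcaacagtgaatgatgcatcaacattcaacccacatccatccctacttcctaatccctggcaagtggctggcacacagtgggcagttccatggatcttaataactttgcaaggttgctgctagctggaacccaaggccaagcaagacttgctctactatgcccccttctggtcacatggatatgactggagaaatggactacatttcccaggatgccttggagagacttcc

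Nearly all listed members of the small subunit processome, the particle that makes the first cuts in the ribosomal RNA transcript, went up. Genes outside the members were more mixed, with 29 risers and 3 fallers among 46 further genes of small subunit processing. Of the 11 processome members 10 rose and 0 fell, where 31.3% of all genes tested rose and 31.0% fell. For all 11 the LPS libraries lay above all control libraries, against 34.0% of all genes tested. The median log2 fold change was 0.97, and the summed level went from between 146 and 162 CPM in control livers to between 324 and 380 CPM in LPS livers. Noc4l, which acts in a pair with Nop14, had 8.42, 6.67 and 6.22 CPM in control and 31.6, 31.5 and 40.4 CPM in LPS livers. The rise was 4.88-fold (log2 fold change 2.29, SE 0.17, adjusted p = 7.92e-08). Nop14 itself rose 1.82-fold, from 14.6, 15.4 and 12.7 CPM in control to 24.0, 23.1 and 30.4 CPM in LPS livers.

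Utp20, a very large repeat protein that braces the particle, had 19.1, 17.6 and 16.6 CPM in control and 61.6, 116 and 45.6 CPM in LPS livers. LPS replicate 2 was 2.54 times LPS replicate 3, the widest spread within the LPS group among the members. Utp20 rose 4.19-fold (log2 fold change 2.07, SE 0.26, adjusted p = 1.24e-05), and its log2 fold change was 1.60 without that library. Heatr1, another large repeat protein, had the smallest standard error of the 8 members that rose at least 2-fold. It stood at 23.3, 23.7 and 21.0 CPM in control and 53.7, 53.8 and 52.0 CPM in LPS livers (log2 fold change 1.23, SE 0.12, adjusted p = 9.66e-07).

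Heatr1 belongs to the complex that loads early on the growing transcript, with Utp4, Utp15, Wdr43 and Wdr75. Of these Utp4 rose 2.11-fold, Wdr43 1.75-fold and Utp15 1.72-fold. Wdr75 had 13.0, 13.8 and 11.2 CPM in control and 15.4, 15.5 and 18.7 CPM in LPS livers, with separate groups but an adjusted p of 0.0614 (log2 fold change 0.38, SE 0.17). Rrp9, a protein of the snoRNA particle inside the processome, rose 1.97-fold, and its LPS libraries were alike at 13.5, 13.6 and 13.5 CPM. Rrp12, which acts late and in export, rose 1.96-fold, and Utp18, part of another processome module, 1.64-fold.

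**Figure D2:**
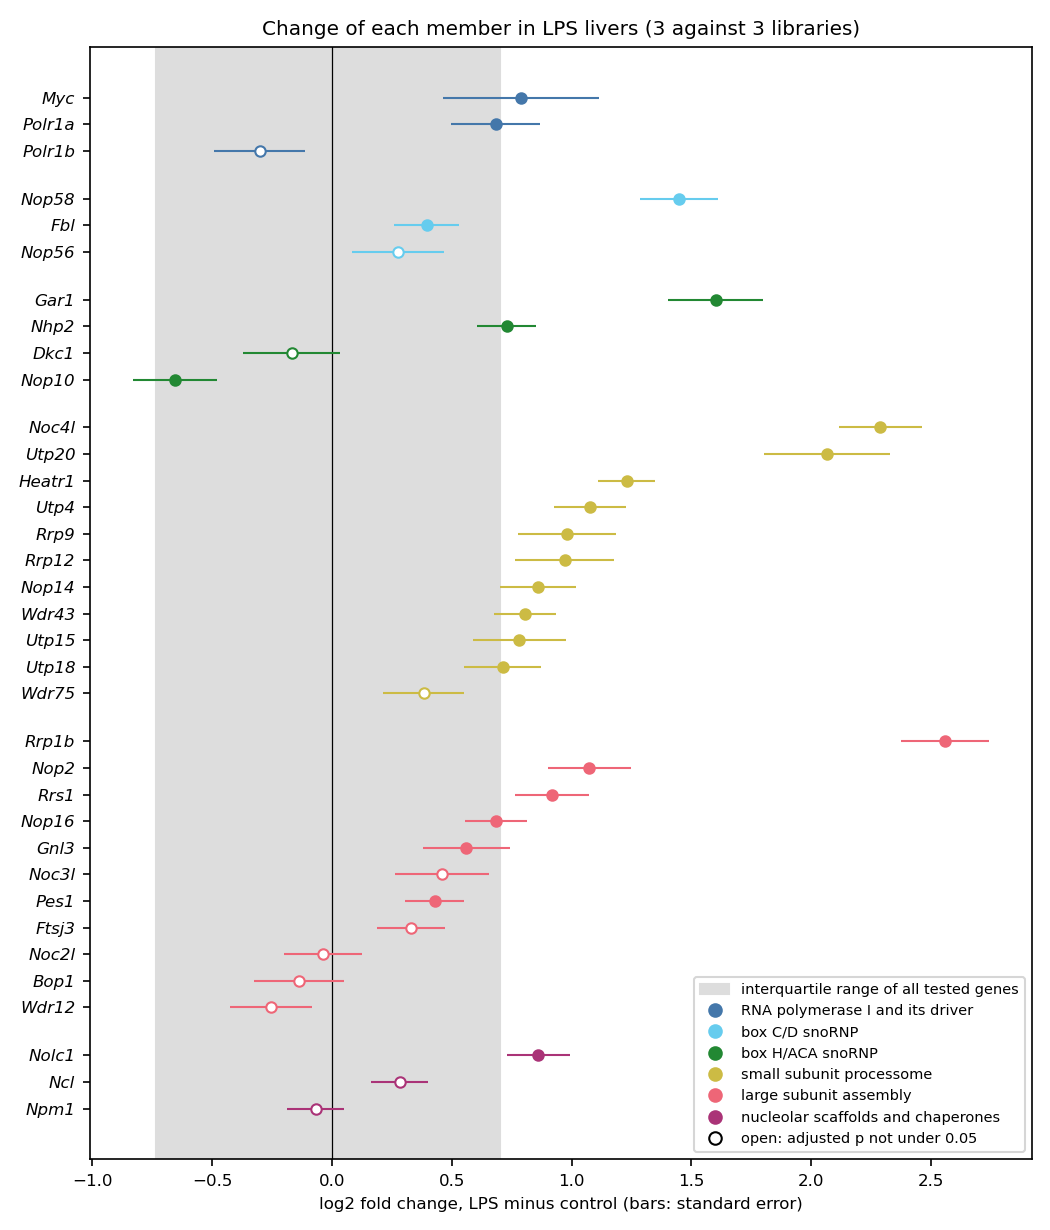
Log2 fold change (LPS minus control) of each gene with its standard error, coloured by role. Filled points passed an adjusted p of 0.05, open points did not, and the grey band is the interquartile range of all tested genes, from -0.73 to 0.70. Rrp1b, Noc4l and Utp20 lie farthest to the right, and Nop10 is the single filled point left of 0.

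Genes of large subunit assembly also rose more often than they fell. Of 11 members 6 rose and 0 fell, beside 31.3% and 31.0% of all genes tested, and their median log2 fold change was 0.46. The LPS libraries lay above all control libraries for 8 and below them for 1, against 34.0% and 33.4% of all genes tested. Rrp1b, a nucleolar protein that also targets a protein phosphatase to the nucleolus, had 5.93, 4.48 and 4.75 CPM in control and 24.9, 33.3 and 30.4 CPM in LPS livers. It was the member with the largest rise, 5.90-fold (log2 fold change 2.56, SE 0.18, adjusted p = 4.49e-08), running from 2.45 to 2.68 on the log2 scale with a library left out. Nop2, a methyltransferase of the large subunit RNA, had 18.9, 18.0 and 17.2 CPM in control and 29.1, 35.6 and 48.9 CPM in LPS livers. It rose 2.11-fold, with LPS replicate 3 highest (log2 fold change 1.07, SE 0.17, adjusted p = 1.1e-04).

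Rrs1, which helps to bring in a small ribosomal RNA with its proteins, rose 1.89-fold (19.4 ± 3.81 to 36.9 ± 2.63 CPM), and Nop16 rose 1.61-fold (25.6 ± 3.20 to 41.3 ± 1.45 CPM, SD, n = 3 each). Gnl3, the GTPase nucleostemin, had 22.5, 39.0 and 34.4 CPM in control and 43.7, 42.8 and 55.5 CPM in LPS livers (log2 fold change 0.56, SE 0.18, adjusted p = 0.0155). Leaving out control replicate 1 (0.36) or LPS replicate 3 (0.44) ended its call.

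Pes1, Bop1 and Wdr12 form 1 complex, and only Pes1 among them passed the threshold. Pes1 had 34.5, 30.1 and 33.7 CPM in control and 46.9, 40.9 and 44.3 CPM in LPS livers (log2 fold change 0.43, SE 0.12, adjusted p = 0.00785). Leaving out control replicate 2 (0.34) ended the call. Bop1 had 31.5, 24.5 and 24.6 CPM in control and 20.1, 20.3 and 32.6 CPM in LPS livers. LPS replicate 3 stood apart from the other two LPS libraries, and the log2 difference of -0.14 (SE 0.19, adjusted p = 0.549) became -0.40 without it, past the threshold (adjusted p = 0.0495). Wdr12 had 14.4, 14.9 and 14.5 CPM in control and 14.3, 10.8 and 11.7 CPM in LPS livers, below control in every library but not past the threshold (log2 fold change -0.26, SE 0.17, adjusted p = 0.210). Whether Pes1 differs from its partners was not tested.

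Ftsj3, a methyltransferase-like factor, had 44.8, 49.6 and 52.5 CPM in control and 55.3, 55.3 and 74.3 CPM in LPS livers. The groups did not overlap, and the log2 difference of 0.33 (SE 0.14, adjusted p = 0.0552) was just outside the threshold. Noc3l, a shuttle factor of precursor particles, was just outside it too (0.46, SE 0.20, adjusted p = 0.0559). Noc2l, its partner, had a log2 difference of -0.04 (SE 0.16, adjusted p = 0.852).

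Of the 3 nucleolar scaffolds and chaperones only Nolc1 rose, beside 31.3% of all genes tested. Ncl, nucleolin, had 212, 229 and 206 CPM in control and 246, 281 and 261 CPM in LPS livers. Its groups did not overlap, with a log2 difference of 0.28 (SE 0.12, adjusted p = 0.0516). Npm1, the histone chaperone nucleophosmin, had 99.4, 121 and 109 CPM in control and 100.5, 106 and 107.5 CPM in LPS livers, with a log2 difference of -0.07 (SE 0.12, adjusted p = 0.643). Nolc1, which escorts snoRNA particles, had 33.8, 33.6 and 26.6 CPM in control and 52.4, 59.4 and 59.1 CPM in LPS livers. Nolc1 rose 1.82-fold (log2 fold change 0.86, SE 0.13, adjusted p = 7.14e-05).

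Levels were compared between genes as CPM per kilobase of coding length, which leaves untranslated parts out of the length but not out of the counts. On this scale the highest in control livers were Nop10 (220 CPM per kilobase), whose coding part spans only 0.192 kilobases, then Npm1 (125) and Ncl (102), and the lowest were Utp20 (2.12), Rrp1b (2.32) and Rrp12 (2.46). In LPS livers Nop10 (140), Ncl (124) and Npm1 (120) still led, while Rrp1b reached 13.6 and went from rank 34 to rank 18, Noc4l from rank 28 to 15 and Utp20 from rank 35 to 26. Dkc1 went from rank 20 to 30 and Polr1b from rank 26 to 35. Ranks carry no test.

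Several members share features that played no part in their choice. Of the 35 genes 6 (17.1%) have annotated snoRNA genes inside them on the same strand, against 1.18% of 21951 protein-coding genes in GENCODE M21. These 6 hold 19 snoRNA genes: Nop56 has 5, Nop58 has 4, Wdr43, Gnl3 and Ncl have 3 each, and Dkc1 has 1. Of the 6 hosts 3 rose (Nop58, Wdr43 and Gnl3), beside 31.3% of all genes tested. Exon bases are shared with another annotated gene on the opposite strand in 14 members, and no source used here says whether the counting used strand. The largest overlap, 20.9% of the exon bases of Noc2l, is with Samd11, which had 0.0324 CPM in control livers and 0 in LPS livers.

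For 10 members a protein-coding gene starts on the opposite strand within 1000 bases. Of these 10 members 8 rose, and of the 10 neighbours 1 rose and 1 fell, where 31.3% of all genes tested rose and 31.0% fell. The neighbours as a list were not tested. Noc4l (chr5:110648418-110653417, minus strand) and Ddx51, a helicase of large subunit assembly, start 34 bases apart. Ddx51 had 10.9, 9.24 and 8.53 CPM in control and 8.19, 10.5 and 9.41 CPM in LPS livers, with a log2 difference of -0.02 (SE 0.20, adjusted p = 0.930) beside the 2.29 of Noc4l. The log2 ratio of Noc4l to Ddx51 counts was -0.43 ± 0.05 in control and 1.88 ± 0.27 in LPS livers (SD, n = 3 each). That shift of 2.31 was the largest of the 12 pairs compared (9 neighbours with at least 10 counts in every library and 3 pairs of partners), and its exact permutation p of 0.1 is the smallest possible.

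Polr1a and its neighbour Ptcd3, a protein of the mitochondrial ribosome that starts 303 bases away, went opposite ways, with Ptcd3 falling (log2 fold change -1.33, SE 0.18, adjusted p = 2.13e-05). Ankra2 rose (0.55, SE 0.21, adjusted p = 0.0304) next to Utp15, and their ratio overlapped between the groups. The remaining 7 neighbours did not pass the threshold. The ratio of member to neighbour counts was higher in every LPS library than in every control library for 7 of the 9 pairs with enough counts, and lower for Bop1 to Hsf1. Most of these members had been called higher, so the ratios partly restate those calls. The share over other gene pairs is not known, while 34.0% of single genes tested lay wholly above control and 33.4% wholly below.

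**Figure D3:**
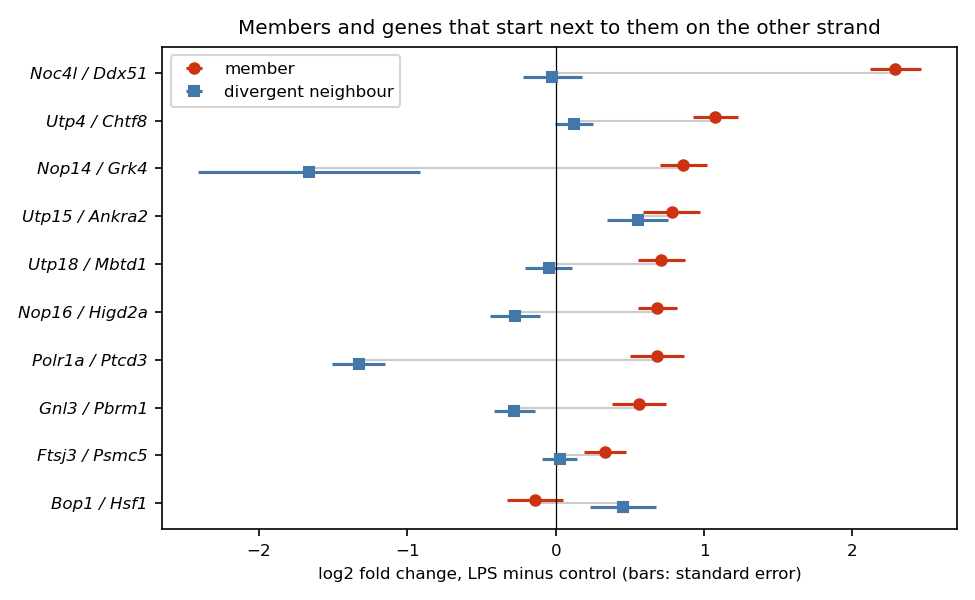
Log2 fold change (LPS minus control, bars are standard errors) of 10 members, as red circles, and of the protein-coding gene that starts next to each on the other strand, as blue squares. Noc4l stands at 2.29 and its neighbour Ddx51 at -0.02, and the wide bar of Grk4 goes with its low level of 0.978 CPM in control livers.

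The rest of the nucleolar pathway was read from lists of genes that are not members. Over the lists for RNA polymerase I, snoRNA particle assembly, processing of each subunit and the exosome, 86 of 135 tested genes rose (63.7%, beside 31.3% of all genes tested) and 7 fell (beside 31.0%), with a median log2 fold change of 0.57. Of 14 other genes of RNA polymerase I transcription 9 rose and 1 fell, with a median of 0.64. The promoter factor subunit Taf1d (1.57, SE 0.16), the shared subunit Polr1c (1.13, SE 0.16) and the polymerase subunit Polr1e (1.59, SE 0.23) had the smallest adjusted p-values. The faller was Ttf1, the termination factor (-0.62, SE 0.21, adjusted p = 0.0221). It was no longer called without control replicate 2 or 3 or without LPS replicate 1 or 2.

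Of 10 assembly factors of snoRNA particles 4 rose and 2 fell, a share called in either direction near the 62.3% of all genes tested. Beside this list and those that follow, 31.3% of all genes tested rose and 31.0% fell. The chaperone partner Rpap3 (1.88, SE 0.14) and the adaptor Nufip1 (1.91, SE 0.19) rose, while Znhit6 fell (-1.22, SE 0.23) and Pih1d1 fell (-0.60, SE 0.15). In this list 7 genes rose without control replicate 1. Of 46 further genes of small subunit processing 29 rose and 3 fell. Ngdn (1.51, SE 0.14), the processome protein Rcl1 (2.02, SE 0.22) and the helicase Ddx52 (1.26, SE 0.14) had the smallest adjusted p-values. The fallers were Wdr46 (-1.05), Tbl3 (-0.65) and Utp6 (-0.42). Of 49 tested genes of large subunit processing 34 rose and 0 fell. The smallest adjusted p-values there were those of Eif6 (2.02, SE 0.12), which keeps the subunits apart, the GTPase Gnl2 (2.08, SE 0.15) and Brix1 (1.55, SE 0.13). Of 16 tested genes of the RNA exosome and ribosomal RNA trimming 10 rose and 1, Exosc7, fell (-0.60), a fall no longer called without control replicate 3 (-0.53) or LPS replicate 3 (-0.44). Mphosph6, an exosome cofactor, went from 1.04 ± 0.467 to 8.33 ± 0.878 CPM (2.95, SE 0.34), Exosc1 rose (1.48, SE 0.21) and the exonuclease Eri1 rose (0.99, SE 0.18).

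**Figure D4:**
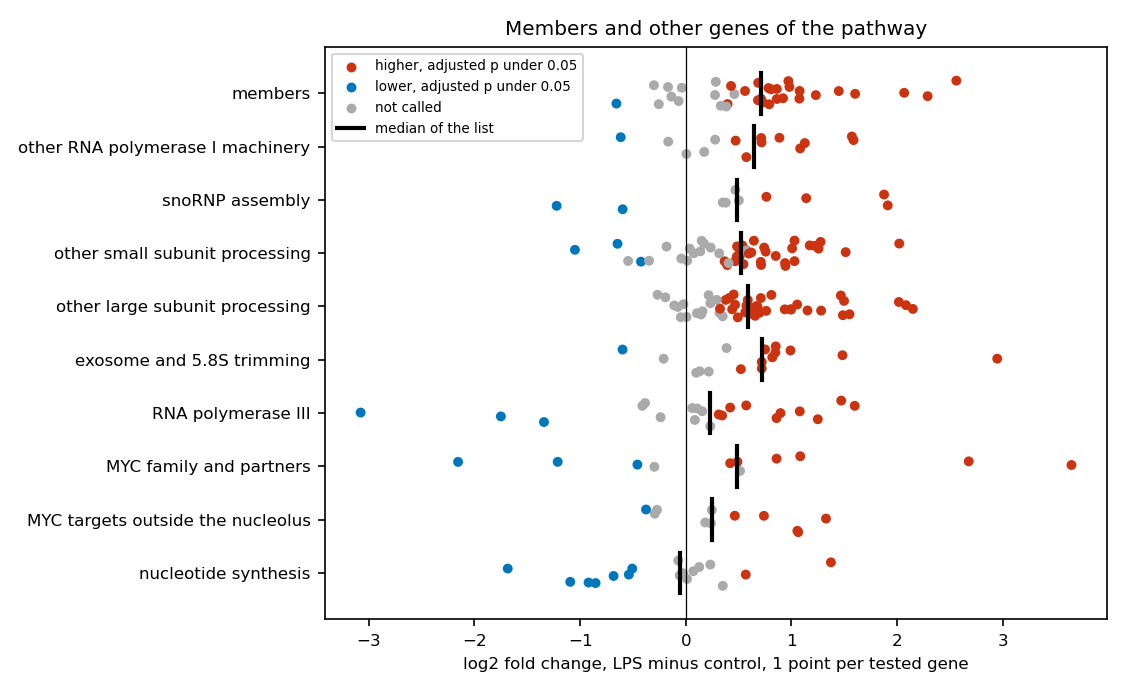
Log2 fold change (LPS minus control) of every tested gene of the 35 members and of 9 lists of other pathway genes, 1 point per gene, red where higher and blue where lower at an adjusted p of 0.05, with a black bar at the list's median. Medians lie between 0.49 and 0.72 for the 5 lists from RNA polymerase I to the exosome, and at -0.06 for nucleotide synthesis.

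Of 11 tested genes of the MYC family and its partners 6 rose and 3 fell. Among all genes tested 31.3% rose, 31.0% fell and 62.3% changed in either direction. Max, its obligate partner, had 13.6, 18.1 and 16.5 CPM in control and 35.2, 34.7 and 32.6 CPM in LPS livers (log2 fold change 1.08, SE 0.14). Mxd1, which competes with MYC for MAX and represses the same sites, had 4.37, 4.67 and 5.07 CPM in control and 31.6, 30.2 and 28.7 CPM in LPS livers. Mxd1 rose 6.40-fold (log2 fold change 2.68, SE 0.16, adjusted p = 7.53e-09). Mycl, another MYC family member, fell from 12.1 ± 2.40 to 2.73 ± 0.556 CPM (-2.16, SE 0.26), and the antagonists Mxi1 (-1.21, SE 0.16) and Mxd4 (-0.46, SE 0.13) fell. Of 11 tested MYC targets outside the nucleolus 5 rose (45.5%) and 1 fell, beside 31.3% and 31.0% of all genes tested. Their share called in either direction was no higher than the 62.3% of all genes tested. The polyamine enzymes Srm (1.06, SE 0.13) and Odc1 (1.06, SE 0.14) and the lactate dehydrogenase Ldha (1.33, SE 0.16) rose, and the mitochondrial chaperonin Hspe1 fell (-0.38). Hspe1 was no longer called without LPS replicate 2 (-0.34). Max was named after its values were seen.

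Other features of the libraries are listed here, and not all of them moved with the groups. The counts of marker risers and fallers stand beside the 31.3% and 31.0% of all genes tested that rose and fell. Neutrophil markers rose in 9 of 9 tested (12 listed, none at 0 in a whole group), with a summed level of 4.04 to 5.89 CPM in control and 219 to 269 CPM in LPS livers, of which Ly6g, the defining surface marker, was under the filter. Cell cycle markers had 4 risers and 0 fallers of 9 tested (12 listed, none at 0 in a whole group), summing to 29.4 to 31.7 CPM in control and 47.1 to 56.3 CPM in LPS livers. Kupffer cell markers fell in 8 of 9 tested, from 315 to 363 down to 81.1 to 129 CPM, and 1 rose. Hepatocyte markers had 3 risers and 9 fallers of 14 (median log2 fold change -0.53), with sums of 126699 to 139455 CPM in control and 118799 to 157603 CPM in LPS livers. These sums mix opposite changes. Mean Fga went from 3029 to 28042 CPM and Fgb from 2791 to 23526 CPM, while Alb went from 79341 to 54469 CPM. Biliary markers had 3 risers and 1 faller of 4 tested, with sums of 19.4 to 32.3 CPM in control and 117 to 138 CPM in LPS livers. By mean CPM in control and LPS livers, Spp1 (17.5 to 95.5), Sox9 (4.73 to 23.5) and Epcam (2.43 to 4.75) rose. The keratin gene Krt19 fell (1.95 to 0.292), and Krt7, under the filter, was lower in every LPS library than in every control library. T and NK cell markers had 3 risers and 0 fallers of 7 tested, with sums of 3.94 to 7.02 CPM and 15.5 to 16.7 CPM. B cell markers had 0 risers and 2 fallers of 5 tested, with sums of 5.54 to 7.05 CPM and 1.71 to 3.52 CPM. Monocyte and macrophage markers had 4 risers and 3 fallers of 9 tested (99.5 to 111 CPM and 62.9 to 79.7 CPM). Endothelial markers had 2 risers and 5 fallers of 9 (326 to 358 CPM and 245 to 376 CPM), and stellate cell markers 1 riser and 6 fallers of 10 (269 to 279 CPM and 254 to 297 CPM). No marker of these lists was at 0 in all 6 libraries. Mitochondrial genes took 3.90% to 4.32% of counts in control and 2.44% to 2.85% in LPS libraries. The 10 most abundant genes took 19.2% to 20.8% of counts in control and 23.9% to 25.5% in LPS libraries. The part of these features in the rise of the nucleolar genes was not tested.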

How the data were processed

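Each library has 1 deposited table of counts, whole and not normalized. The submitters' processing notes name bcl2fastq 2.0, HISAT2, StringTie, DESeq2, limma and mm10, without roles. The counting tool, annotation, strand setting and handling of multiply mapped reads are not given in the sources used here. Counts were compared in R 4.3.3 with edgeR 4.0.16: TMM scaling, filterByExpr (minimum count 10, minimum total 15, at least 3 libraries), the 2-sided quasi-likelihood F test and Benjamini-Hochberg adjustment over 12078 genes, with a threshold of 0.05. A gene rose or fell where it passed. Standard errors came from the fold change and its F statistic. The common biological coefficient of variation was 16.4%. The fit was tested on simulated data. Within a group, libraries differed by more than sampling noise (chi-square divided by its degrees of freedom, 11.6 to 31.2). Deviations from group means of equally numbered libraries correlated at -7.45e-04, 0.104 and 0.0352, so numbers were taken not to pair them. Members, lists and tests were chosen with earlier results of these data known. Library values are given for Myc, Polr1a, Polr1b and, in each role, the smallest adjusted p, the highest level and calls against the majority. Library values of other members, and the printed promoters, were added after seeing values. In each pathway list the 3 smallest adjusted p-values are named, with genes called against the list's majority. A list of 12 snoRNA host RNAs had no matching line and was not analysed here. Positions are from GENCODE M21 (GRCm38). Alternatives were DESeq2 1.42.0, RLE factors, library totals, no filter, a filter of 50 counts in 3 libraries, a replicate block, leaving out each library and, added later, counts divided by 2.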

Additional observations from a re-analysis of the deposited data

How the results depend on the processing

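The rise of most nucleolar genes kept its direction under every setting tried, and 20 of the 24 called members kept their call under all 13 settings. Risers numbered 24 with DESeq2, 23 with RLE factors, 21 with library totals, 23 without a filter, 23 with the stricter filter and 26 with counts divided by 2, where Ncl (adjusted p = 0.0405), Ftsj3 (adjusted p = 0.0435) and Noc3l (adjusted p = 0.0490) passed. Fallers numbered 1 in each of these. With a library left out, risers ran from 20 to 24, fallers from 1 to 2 (2 without LPS replicate 3), the members' median from 0.66 to 0.76, and other pathway genes from 94 to 103 risers and 17 to 22 fallers. In the main fit 109 of 195 tested other pathway genes rose and 21 fell, beside 31.3% and 31.0% of all genes tested. Shares of all genes called under each other setting are not given here. With the replicate block 24 members rose, Ftsj3 included, and the members' median was 0.71, while other pathway genes gave 111 risers and 21 fallers. Equal numbers are not stated to pair libraries. Ncl passed with DESeq2 (adjusted p = 0.0334) and the stricter filter (adjusted p = 0.0497), and Ftsj3 and Noc3l without LPS replicate 2. No member reversed its direction past the threshold. The cause of these shifts was not tested.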

Other observations

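Genes that supply nucleotides for RNA synthesis did not follow the nucleolar genes. Of 17 tested 2 rose and 7 fell, where 31.3% of all genes tested rose and 31.0% fell. Their median was -0.06 on the log2 scale. Paics, an enzyme of purine synthesis, had 200.2, 225 and 229 CPM in control and 71.0, 68.2 and 64.2 CPM in LPS livers (log2 fold change -1.69, SE 0.12, adjusted p = 4.70e-08). Every LPS library was far below control. Gart, from the same pathway, fell as well (-1.09, SE 0.21), and so did Dhodh (-0.92) and Umps (-0.85) of pyrimidine synthesis. Dhodh was no longer called without control replicate 1 (-0.62) or LPS replicate 1 (-0.81). The risers were Ctps, which makes cytidine triphosphate (1.37, SE 0.22), and Gmps, which makes guanosine monophosphate (0.57, SE 0.12). Dhodh and Umps were named after their values were seen.

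RNA polymerase III, which makes the smallest ribosomal RNA and transfer RNAs, had a share of genes called in either direction near that of all genes. Of 21 tested genes 10 went up (47.6%) and 3 down at the threshold (median 0.23), beside 31.3% and 31.0% of all genes tested and 62.3% in either direction. The log2 fold change was positive for 15 of them, beside 50.5% of all genes tested. Only 6 rose with library totals as the only scaling or without control replicate 3. Maf1, its repressor, rose from 23.3 ± 1.56 to 49.3 ± 7.07 CPM (SD, n = 3 each) (log2 fold change 1.08, SE 0.14), and the initiation factor Brf2 rose (1.60, SE 0.27). Gtf3c1, the largest subunit of an initiation factor complex, fell from 72.4 ± 6.98 to 28.5 ± 3.83 CPM (SD, n = 3 each) (-1.34, SE 0.14). Gtf3a, which is needed for the smallest ribosomal RNA, had 2.18, 0.778 and 1.22 CPM in control livers and 0.512, 0 and 0 CPM in LPS livers. It fell at these low counts (adjusted p = 0.0111), no longer so without control replicate 1 (adjusted p = 0.0565). Polr3g, a polymerase subunit, fell (-1.75, SE 0.37).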
